A study of Homo sapiens with 17 samples.

Results

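Ribosome biogenesis begins in the nucleolus, where RNA polymerase I transcribes the precursor of the ribosomal RNAs. The small subunit processome, a large assembly that holds most proteins with UTP names, folds and cleaves the part of this precursor that becomes the small subunit, and other factors shape the large subunit. Small nucleolar ribonucleoproteins (snoRNPs) guide methylation and pseudouridylation of the ribosomal RNA, and the RNA exosome, a ring of subunits with 3′ to 5′ exonucleases attached, trims the precursor and destroys its spacers along with many nuclear RNAs.

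The genes described here were chosen by symbol alone, as those named UTP, NOP, NOL, RRP, NOC or EXOSC followed by a number and at most 1 letter, together with POLR1A to POLR1E. Of 19222 genes in the 1 h table, 52 met the rule. By their known roles, 20 belong to the small subunit processome, 9 to large subunit assembly, 3 to the snoRNP core, 5 to RNA polymerase I and 10 to the exosome, and the remaining 5 are NOL3, NOL4, NOL4L, NOL8 and RRP8. NOL3 and NOL4L carry a nucleolar name although no role in ribosome assembly is established for them. Some genes of the same pathway stand in the table under other symbols (UTP4 as CIRH1A, for example) and were counted in separate lists.

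The data come from TL-seq, in which cells take up 4-thiouridine (s4U) and recoding chemistry turns it into T-to-C changes in the reads, so that RNA made during the labeling can be told from RNA that was already there. HEK-293T, a wild-type line of human embryonic kidney cells, was either left untreated or given 1.8 µM emetine, an alkaloid that stops translation elongation, for 1 h together with 500 µM s4U. There were 3 libraries of each kind, and 1 untreated and 1 emetine library without s4U served as the conversion background. A separate 2 h experiment used 250 µM s4U with no emetine, 1.8 µM or 240 µM emetine, in 3 libraries each. The labels give replicate numbers but do not say that replicates came from separate cultures, so p-values measure only the spread between these libraries, which may be technical.

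The 6 libraries with s4U held 22246279 to 40018063 reads given to genes, and the 52 genes held between 45 and 24102 reads in a library. Markers known for this line were present (VIM at 505 to 637, NEFL at 102 to 121 and KRT18 at 36.5 to 58.1 in CPM, reads scaled to the size of the library), and PTPRC, CD3E and HBB had no read in any of the 6 libraries. 1 library stood apart in level. In emetine replicate 3, the deviation from the emetine mean followed transcript length over 10671 genes (Spearman's rho 0.76, against -0.69 in each of the other emetine libraries). Deviations from a shared mean balance out, so the opposite sign in the others follows from the measure. Against the untreated mean, rho over the 52 genes was 0.79 in emetine replicate 3, 0.20 in replicate 1 and 0.11 in replicate 2. Results that rest on emetine replicate 3 are given with and without it.

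A sequence feature that the rule did not use was looked for first. RefSeq windows (GRCh38.p14) of 250 bases before to 50 bases after the start were at hand for 44 of the 52 genes. The E-box CACGTG, which reads the same on both strands and is known as the binding sequence of MYC and related factors, stood in 12 of these 44 windows (27.3%), against 7.43% of all 27305 windows and 10.3% of the 10849 windows of genes tested for level. The ETS sequence CCGGAAG, searched on both strands, stood in 14 windows (31.8%, against 18.9% of the windows of tested genes). The TATA sequence TATAAA and the longer sequences of NRF1 and YY1 stood in 2 windows each, or 4.55%, against 5.4%, 2.28% and 2.02% of the windows of tested genes. No test was made of these shares, and a match is a stretch of letters, not a bound site. The 12 windows with an E-box are shown with up to 10 bases on each side of the match nearest to the 5′ end and the E-box in capitals, because its share exceeded that of tested genes by the largest factor of the 5 motifs. The first base of the match lay between position -241 and position 36 relative to the start, counted from -1 before it and 1 after it, and EXOSC5, NOP10 and UTP18 held 2 matches.
NOL6: catttccgccCACGTGggaagctatg (chr9:33473896-33473921, minus strand)
NOL7: ctgcgctggcCACGTGgaaagaaaca (chr6:13615176-13615201, plus strand)
NOP14: cgcggcccggCACGTGtcttagggta (chr4:2963376-2963401, minus strand)
RRP9: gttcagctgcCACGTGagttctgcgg (chr3:51941894-51941919, minus strand)
UTP14A: accttgggcCACGTGgaaaccaggg (chrX:129905914-129905938, plus strand)
UTP18: gagtgctggtCACGTGgcaagaggct (chr17:51260447-51260472, plus strand)
UTP20: tttttccgtcCACGTGacccactcag (chr12:101280085-101280110, plus strand)
NOC3L: gggacttcggCACGTGtgtcattccc (chr10:94362905-94362930, minus strand)
NOP2: gtccggattgCACGTGgagggccgc (chr12:6568242-6568266, minus strand)
NOP10: agggacactcCACGTGttttagcctg (chr15:34343291-34343316, minus strand)
EXOSC5: aacgctaagcCACGTGcggacgccca (chr19:41397433-41397458, minus strand)
NOL8: tccgttgggaCACGTGaccagaagtt (chr9:92325344-92325369, minus strand)
By role, 7 of the 12 belong to the small subunit processome, 2 to large subunit assembly and 1 each to the snoRNP core, the exosome and the remaining group, and none encodes a subunit of RNA polymerase I.

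In untreated cells, 47 of the 52 genes had a level above the median gene, and the group as a whole turned over at about the pace of other genes. The median level of the 52 genes was 102 CPM, against 25.7 CPM over the 13776 genes tested for level. Per kilobase of transcript, the most abundant were NOP10 (334 CPM per kb), a small protein of the box H/ACA snoRNPs and of telomerase, NOP56 (280 CPM per kb), a scaffold of the box C/D snoRNPs, and NOP16 (197 CPM per kb), a large subunit assembly factor. The least abundant were NOL4 (0.466 CPM per kb), NOL4L (0.598 CPM per kb) and UTP14C (3.25 CPM per kb). NOL3, NOL4 and NOL4L were at 6.37 CPM or less in the libraries with s4U and had too few reads for a fraction new.

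The fraction new, the share of a gene's reads estimated to come from RNA made during the labeled hour, had a median of 12.9% over the 49 genes that reached 100 reads in each of the 6 libraries with s4U, against 12.2% over all 10763 genes that did. It corresponds to a median half-life of 5.25 h (all genes 5.65 h), with the half-life taken as -ln(2) times 1 h over ln(1 - fraction new), which holds only where levels are steady. In the libraries without s4U, the same estimate gave at most 0.689% (untreated) and 0.149% (emetine) for any of these genes. The lowest fraction new was 3.87% (NOC2L). Those libraries also set the background rate, so low values there partly follow from the method. The share of reads with at least 2 conversions needs no fitted rate. It was at most 0.629% without s4U, and its lowest mean over the 6 libraries with s4U was 2.40%.

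Half-lives spread widely within the pathway. 5 of the 49 genes (10.2%) had an untreated half-life under 2 h, against 14.4% of all genes. They were UTP23 (1.31 ± 0.396 h, SD, n = 3), EXOSC6 (1.38 ± 0.190 h), POLR1C (1.52 ± 0.218 h), UTP3 (1.76 ± 0.247 h) and RRP8 (1.97 ± 0.572 h). They encode a PIN-domain protein and a SAS10-family protein of the processome (UTP23 and UTP3), a ring subunit of the exosome, a subunit shared by RNA polymerases I and III, and a nucleolar methyltransferase. EXOSC6 and UTP3 have 1 exon, UTP23 has 3, RRP8 has 7 and POLR1C has 9. Over all genes with a length the median fraction new was 33.2% for 221 genes with 1 exon, 23.8% for 1115 genes with 2 or 3 exons and 11.2% for 9335 genes with more.

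At the other end, NOC2L, a large subunit assembly factor also known as an inhibitor of histone acetylation, had a half-life of 18.5 ± 5.06 h. NOC4L (15.2 ± 5.57 h) and EXOSC10, the nuclear exonuclease of the exosome (14.4 ± 4.01 h), followed, and the 3 intervals overlap. The untreated libraries differed from each other in fraction new across the board. Replicate 1 was the lowest of the 3 in 46 of the 49 genes and replicate 3 the highest in 44, with medians of 10.0%, 12.9% and 16.2% over the 49 genes and of 9.26%, 12.3% and 14.7% over all genes. Most neighbours in the order of half-lives differ by less than this spread, whereas the highest value of any of the 5 fastest genes (2.60 h, RRP8) was below the lowest value of NOC2L (13.1 h).

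**Figure D1:**
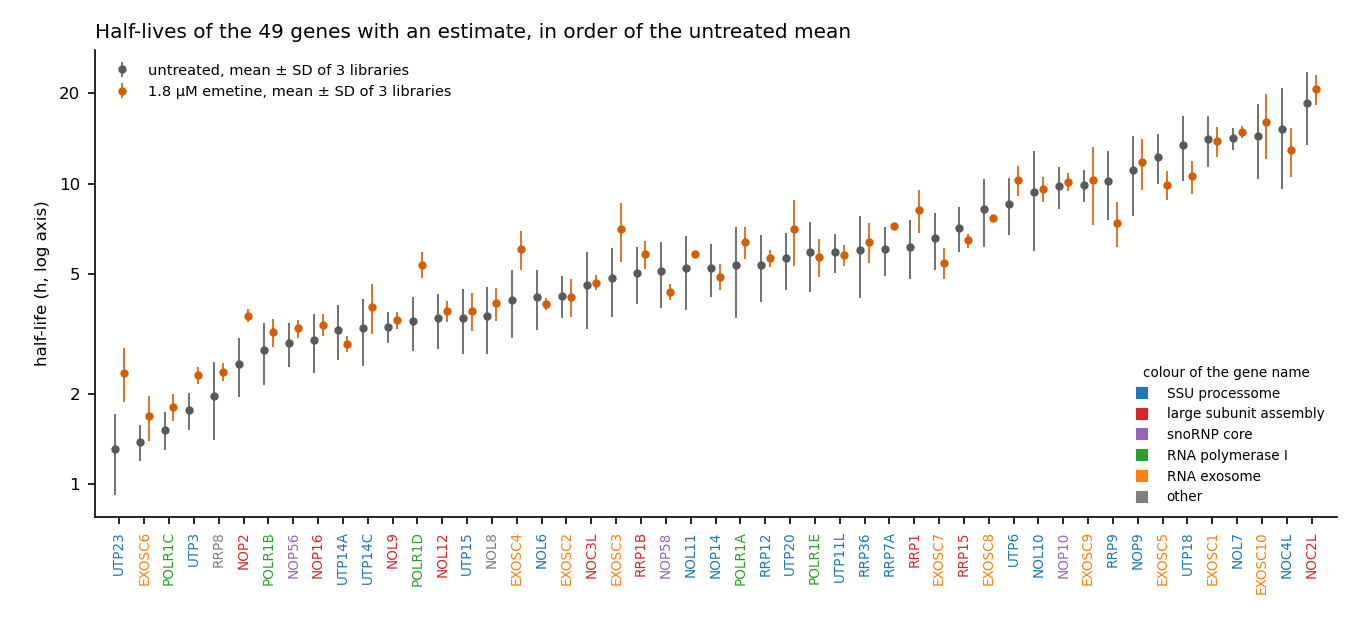
Half-life in hours (log axis), computed from fraction new as if levels were steady, of the 49 genes with an estimate, in order of the untreated mean, with untreated libraries in gray and 1.8 µM emetine libraries in orange (mean ± SD, 3 libraries each) and gene names colored by role. Untreated means run from 1.31 h (UTP23) to 18.5 h (NOC2L), and the bars of the 2 groups overlap in most genes.

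After 1 h of emetine, no level among these genes passed the test. By edgeR's quasi-likelihood test with Benjamini-Hochberg adjustment over 13776 genes, 0 of the 52 were called higher (background 2.64% of all genes) and 0 lower (background 0.0436%). At an unadjusted p under 0.05, 3 were higher (5.77%, against 14.9% of all genes) and 0 lower (against 6.95%), and DESeq2 called 1 higher (UTP23, 1.92%, against 6.59% of all genes). The log2 fold changes ran from -0.34 (NOP10) to 0.48 (UTP23), with a median of 0.00061 (all genes 0.030), 27 above 0 and 25 below, and standard errors of 0.082 to 0.24. Groups of 3 libraries did not overlap in 8 genes that were higher with emetine (15.4%, background 19.5%) and in 2 that were lower (3.85%, background 15.2%). In bulk RNA, fewer cells that express a gene and less RNA per cell cannot be told apart. Directions are relative to the other genes of a library. Scaled to the spike-in reads instead, the median log2 fold change was 0.71 over all genes and 0.68 over the 52, all 52 were above 0 and 0 of the 52 were called. The spike-in share of reads was 0.667%, 0.480% and 0.728% in the untreated libraries and 0.304%, 0.666% and 0.408% with emetine, and the groups overlapped. Genes described below as lower are lower relative to other genes.

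UTP23 had the smallest p. It stood at 17.0, 17.9 and 14.1 CPM in the untreated libraries and at 20.6, 23.8 and 24.2 CPM with emetine. All 3 emetine libraries were above all 3 untreated ones, with a log2 fold change of 0.48 ± 0.13 (SE) and an adjusted p of 0.0911 (edgeR). In the libraries without s4U, 1 of each kind, it stood at 19.95 CPM untreated and 24.7 CPM with emetine.

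NOC3L, a large subunit factor, and POLR1B, which forms the active site of RNA polymerase I together with POLR1A, were the other genes with an unadjusted p under 0.05. NOC3L had 49.3, 56.1 and 49.2 CPM untreated and 58.7, 56.8 and 71.7 CPM with emetine (log2 fold change 0.27 ± 0.11, adjusted p = 0.213, edgeR). POLR1B had 93.2, 99.8 and 97.4 CPM untreated and 102, 110 and 148 CPM with emetine (0.31 ± 0.14, adjusted p = 0.228, edgeR). In both genes the emetine libraries were all higher, and emetine replicate 3 was the highest by far. Without it the log2 fold changes were 0.16 and 0.14. NOL8 (0.20 ± 0.10, adjusted p = 0.259, edgeR) and RRP8 (0.21 ± 0.10, adjusted p = 0.266, edgeR) came next by p. Without emetine replicate 3 they were at 0.19 and 0.28. The groups of RRP8 overlapped and those of NOL8 did not. Emetine libraries were also all higher in NOL4, NOL11, NOP14 and RRP12.

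The lowest log2 fold changes, none of them called, were those of NOP10, EXOSC5 and EXOSC1. NOP10 had 166, 155 and 187 CPM untreated and 144, 157 and 99.8 CPM with emetine (log2 fold change -0.34 ± 0.16, adjusted p = 0.250, edgeR), and -0.16 without emetine replicate 3. EXOSC5 (-0.25 ± 0.17) and EXOSC1 (-0.24 ± 0.15), a ring and a cap subunit of the exosome, came to -0.061 and -0.078 without it. NOC2L (-0.19 ± 0.091) and RRP7A (-0.15 ± 0.089) were the 2 genes whose emetine libraries were all below the untreated ones. NOC2L had 414, 447 and 407 CPM untreated and 367, 389 and 355 CPM with emetine (adjusted p = 0.253, edgeR).

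Emetine replicate 3 was the lowest of the 6 libraries in 28 of the 52 genes and the highest in 15. Its median log2 difference from the untreated mean over the 52 genes was -0.19, against 0.011 and 0.051 for emetine replicates 1 and 2. Across the 52 genes, the log2 fold change rose with transcript length (Spearman's rho 0.65), and without this library rho was 0.12. The same values over 13482 genes were 0.47 and 0.18. The points share the same 6 libraries, so rho is given as a description.

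**Figure D2:**
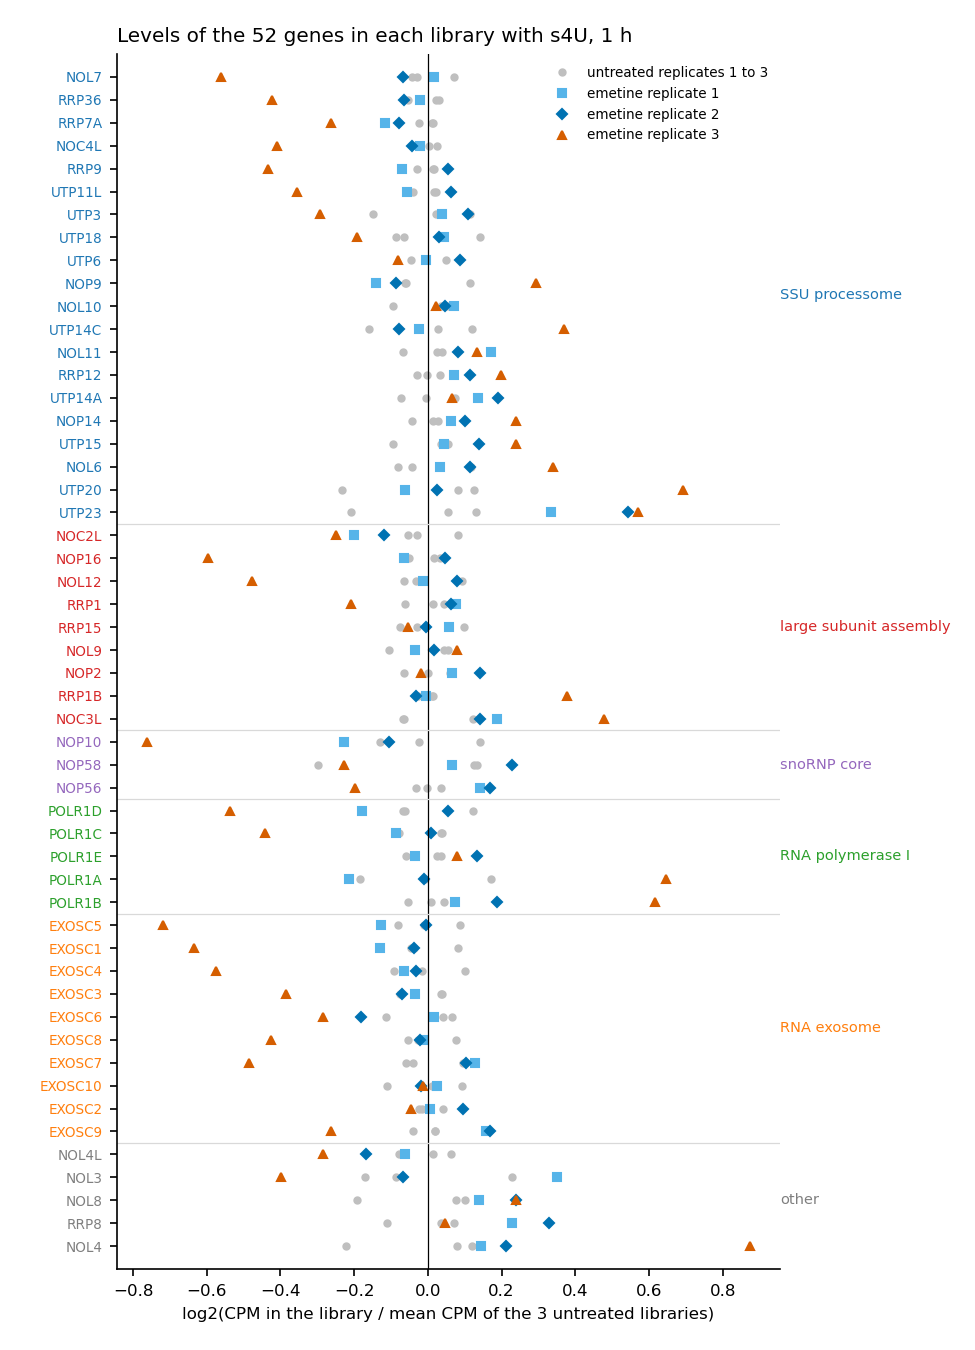
log2 ratio of the CPM in each library with s4U to the mean CPM of the 3 untreated libraries, for the 52 genes by role (gray circles, untreated; light blue squares, dark blue diamonds and orange triangles, emetine replicates 1, 2 and 3). Emetine replicate 3 lies within the range of the untreated libraries in 7 genes, replicate 1 in 23 and replicate 2 in 20, and UTP23 is a gene in which all 3 emetine libraries are above.

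**Figure D3:**
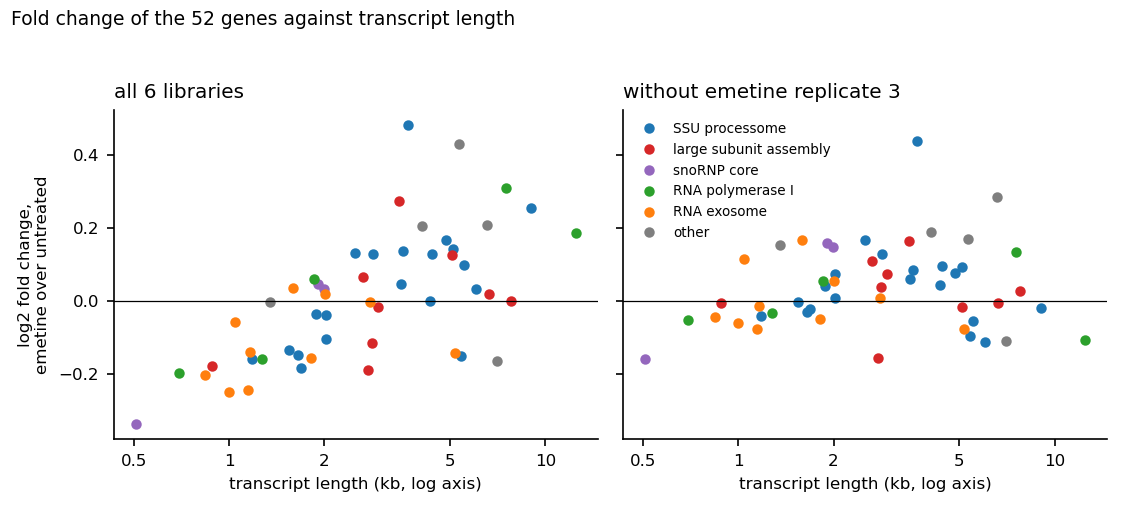
log2 fold change of emetine over untreated against transcript length in kb (log axis) for the 52 genes, colored by role, with all 6 libraries (left) and without emetine replicate 3 (right). The slope on the left (Spearman's rho 0.65) is mostly gone on the right (0.12), and UTP23 is the highest point on both sides.

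By role, the exosome subunits had the lowest median log2 fold change, -0.14, with 2 of 10 above 0 and 8 below (under spike-in scaling the median was 0.55 and all 10 were above 0). Without emetine replicate 3 the median was -0.028, with 4 above 0 and 6 below. Emetine replicate 3 was the lowest emetine library in 9 of the 10, among them both the shortest transcript (EXOSC4, 842 bases) and the longest (EXOSC6, 5163 bases). Whether transcript length has a part in the low median was not tested. Their levels were between 53.1 and 161 CPM untreated, and the emetine and untreated libraries overlapped in all 10. EXOSC2, an RNA-binding cap subunit, had 113, 114 and 119 CPM untreated and 116, 123 and 112 CPM with emetine (log2 fold change 0.020 ± 0.082), and EXOSC10 had 162, 149 and 171 CPM untreated and 164, 159 and 159 CPM with emetine (-0.0019 ± 0.087). EXOSC3, also of the cap, was at -0.15 ± 0.11, and the ring subunits EXOSC4, EXOSC6, EXOSC7, EXOSC8 and EXOSC9 ran from -0.20 (EXOSC4) to 0.036 (EXOSC9).

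The 5 subunits of RNA polymerase I had a median of 0.061, which turned to -0.033 without emetine replicate 3 (0.71 under spike-in scaling). POLR1A, the largest subunit, ran from 68.6 to 125 CPM with emetine, the widest spread of any of the 52 genes relative to its mean (SD 32.9% of the mean), and its log2 fold change was 0.19 ± 0.20 with emetine replicate 3 and -0.11 without it. POLR1C (-0.16 ± 0.12) and POLR1D (-0.20 ± 0.14), both shared with RNA polymerase III, and POLR1E (0.061 ± 0.086) had no call. The medians were 0.040 for the 20 processome genes, 0.000067 for the 9 large subunit genes, 0.034 for the 3 snoRNP genes and 0.20 for the remaining 5, and without emetine replicate 3 they were 0.042, 0.028, 0.15 and 0.17.

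In fraction new, 1 of the 49 genes was called lower with emetine (2.04%, background 4.83%) and 0 were called higher (background 0.214%), by limma on the logit of the fraction new with Benjamini-Hochberg adjustment over 10763 genes. At an unadjusted p under 0.05, 4 were lower (8.16%, against 15.4% of all genes) and 0 higher (against 1.15%). The logit change was below 0 in 34 genes and above 0 in 15, with a median of -0.081 (all genes -0.16). Groups did not overlap in 5 genes that were lower (10.2%, background 16.8%) and in 1 that was higher (2.04%, background 2.2%).

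The gene called was UTP23. Its fraction new was 32.5%, 44.9% and 49.5% in the untreated libraries and 26.8%, 30.0% and 21.4% with emetine. The groups did not overlap, and the logit change was -0.73 ± 0.22 (SE) with an adjusted p of 0.0361 (limma). By the same formula this is 1.31 ± 0.396 h untreated and 2.35 ± 0.479 h with emetine (SD, n = 3), the latter not a measured half-life where the level is changing. UTP23 rests on few reads, 299 to 952 in a library, and its call held in 3 of 11 alternatives, with adjusted p between 0.0067 and 0.352. Of the 6 libraries, only the loss of untreated replicate 1 kept it, and without each of the others the adjusted p was 0.110 to 0.352.

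For UTP23, labeled and unlabeled reads were computed from its level and fraction new, so they are not independent of those results. Its unlabeled reads, from RNA made before the labeling, stood at 11.4, 9.85 and 7.13 CPM untreated and at 15.1, 16.6 and 19.0 CPM with emetine. They were higher in all 3 emetine libraries, with a difference of 0.82 ± 0.18 on the log2(CPM + 0.5) scale and an adjusted p of 0.0291 (limma), and UTP23 was the 1 gene of the 49 that was called (2.04%, background 7.3%). The call was lost without untreated replicate 2 (adjusted p = 0.106), without untreated replicate 3 (0.110) and with a replicate block (0.111), and without emetine replicate 3 NOP2, NOP56 and RRP8 were called as well (8.16% of the 49 genes, against 13.7% of all genes). Its labeled reads stood at 5.51, 8.03 and 6.98 CPM untreated and at 5.51, 7.13 and 5.18 CPM with emetine, and overlapped (-0.19 ± 0.26, adjusted p = 0.849, limma). UTP23 (GRCh38, chr8:116766505-116849463, plus strand, 3 exons) overlaps EIF3H and RAD21 on the opposite strand. The libraries were made with a stranded kit, but the strand setting of the counting is not given in the sources used here, so a contribution of their reads was not tested.

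The next 3 genes by p were POLR1D, NOP2 and EXOSC4, none of them called. POLR1D had a fraction new of 14.9%, 21.0% and 19.3% untreated and 11.04%, 13.2% and 12.2% with emetine, with no overlap (logit change -0.48 ± 0.21, adjusted p = 0.197, limma). NOP2, a methyltransferase of the large subunit ribosomal RNA, had 20.04%, 24.7% and 29.4% untreated and 17.2%, 18.2% and 16.7% with emetine, also with no overlap (-0.44 ± 0.21, adjusted p = 0.270, limma). EXOSC4 had 12.2%, 16.9% and 19.0% untreated and 9.54%, 10.8% and 12.6% with emetine (-0.43 ± 0.21, adjusted p = 0.287, limma), and 1 emetine library was above the lowest untreated one.

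Labeled reads of POLR1D stood at 14.4, 20.3 and 21.3 CPM untreated and at 9.88, 13.9 and 8.51 CPM with emetine, with no overlap. The difference was -0.78 ± 0.24 on the log2(CPM + 0.5) scale, with an adjusted p of 0.0778 (limma). EXOSC4 (-0.73 ± 0.24), EXOSC3 (-0.64 ± 0.25) and NOP2 (-0.42 ± 0.21) were the other genes whose labeled reads were lower at an unadjusted p under 0.05. That made 4 of the 49 genes lower, against 1138 of all 10763 genes, and 0 higher, against 176. After adjustment, 0 of the 49 were called lower (background 0.632%) and 0 higher (background 0.26%). Unlabeled reads of NOP2 stood at 217, 214 and 209 CPM untreated and at 246, 256 and 233 CPM with emetine (0.20 ± 0.089, adjusted p = 0.189, limma), with no overlap. The log2 fold change of all NOP2 reads was 0.065 ± 0.090. Besides POLR1D, labeled reads were lower without overlap in EXOSC3, EXOSC4, EXOSC6, NOL7, POLR1C, RRP1, RRP7A and UTP3. Besides UTP23 and NOP2, unlabeled reads were higher without overlap in NOC3L, NOL8, NOL11, NOP14, POLR1B, RRP8 and RRP12, and lower in NOC2L and RRP7A. The share of all genes without overlap in these reads was not computed, so these lists do not set the named genes apart. Over all genes, groups did not overlap in 19.5% (higher) and 15.2% (lower) for level, and in 2.2% and 16.8% for fraction new.

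**Figure D4:**
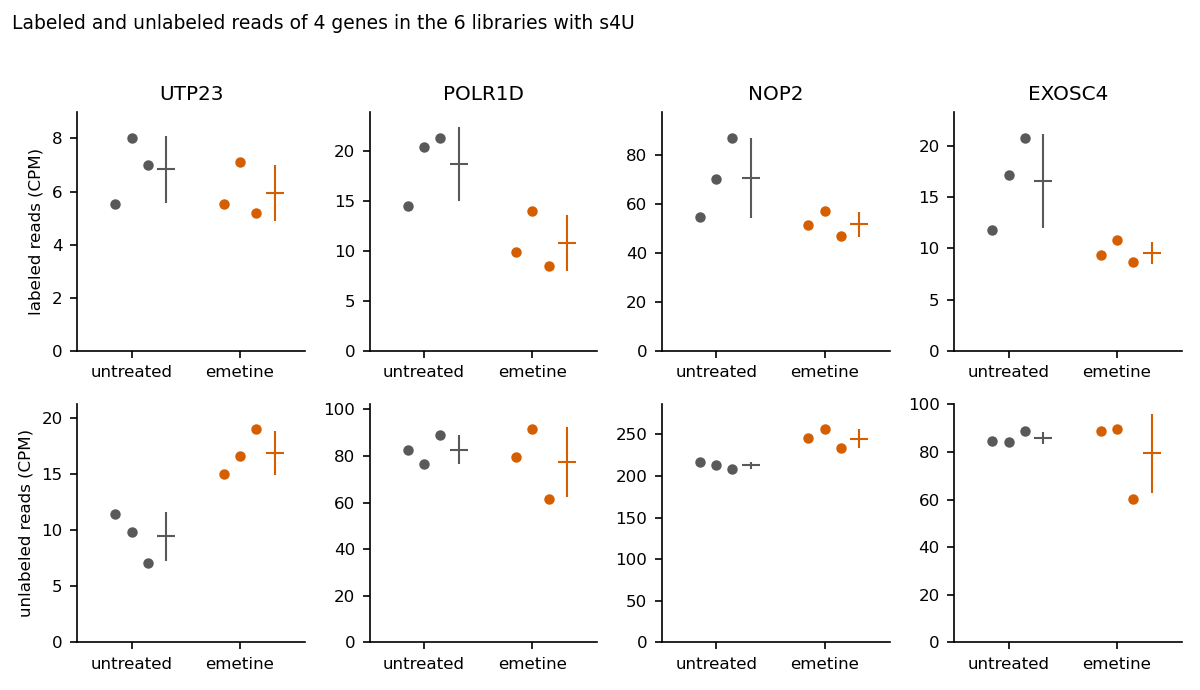
Labeled (top) and unlabeled (bottom) reads in CPM of UTP23, POLR1D, NOP2 and EXOSC4 in the 3 untreated (gray) and 3 emetine (orange) libraries with s4U, with mean ± SD beside the points. In UTP23 the unlabeled reads are separated (7.13 to 11.4 CPM against 15.1 to 19.0 CPM), as are those of NOP2. In POLR1D and EXOSC4 the labeled reads are separated. Several genes that are not shown were separated in the same ways, and the share of all genes so separated was not computed.

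The calls depended on which untreated library was kept. Without untreated replicate 1, the library with the lowest fraction new, 7 of the genes were called lower in fraction new (EXOSC3, EXOSC4, NOP2, POLR1D, RRP8, UTP23 and UTP3) or 14.3%, while the calls over all genes rose from 520 to 2524 (23.5%). Without untreated replicate 3, 0 were called, and the median logit change over the 49 genes was 0.019.

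Among the genes with a higher fraction new, RRP9, a protein of the U3 snoRNP, was the 1 gene without overlap. It had 5.11%, 7.47% and 7.87% untreated and 8.03%, 8.31% and 10.97% with emetine (0.32 ± 0.22, adjusted p = 0.516, limma). UTP18 (0.24 ± 0.22), EXOSC5 (0.21 ± 0.22), EXOSC7 (0.19 ± 0.21) and NOP58, a partner of NOP56 in the box C/D snoRNPs (0.15 ± 0.21), followed with overlapping groups. RRP7A and UTP3 completed the 5 genes that were lower without overlap, UTP3 at 29.2%, 32.4% and 36.8% untreated and 25.5%, 24.8% and 27.8% with emetine (-0.33 ± 0.21, adjusted p = 0.495, limma).

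By role, the median logit change was -0.22 in RNA polymerase I, -0.13 in large subunit assembly, -0.076 in the processome, -0.044 in the snoRNP core and -0.0041 in the exosome, with 5 of 10 exosome subunits below 0 and 5 above. In the exosome and in RNA polymerase I, half-lives differed widely between subunits. Untreated half-lives of the exosome subunits ran from 1.38 h (EXOSC6) to 14.4 h (EXOSC10), with EXOSC1 at 14.0 h, EXOSC5 at 12.3 h, EXOSC9 at 9.89 h, EXOSC8 at 8.26 h, EXOSC7 at 6.58 h, EXOSC3 at 4.85 h, EXOSC2 at 4.24 h and EXOSC4 at 4.12 h. Those of the RNA polymerase I subunits ran from 1.52 h (POLR1C) over POLR1B (2.79 h), POLR1D (3.49 h) and POLR1A (5.36 h) to POLR1E (5.90 h).

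The pairs of related genes were compared next. UTP14C is a retrogene copy of UTP14A, and their coding sequences (2313 and 2298 bases, GENCODE 44) were 94.8% identical over 2295 aligned bases, with 3 identical runs of 75 bases or more and a longest run of 169 bases. Reads from such runs cannot be told apart. The 90-base coding stretch with the most mismatches shows how the copies can be separated elsewhere, with the 10 mismatched bases in capitals.
UTP14A: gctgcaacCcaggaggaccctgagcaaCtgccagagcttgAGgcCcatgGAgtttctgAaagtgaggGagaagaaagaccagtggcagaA (chrX:129921398-129921487, plus strand, exon 11)
UTP14C: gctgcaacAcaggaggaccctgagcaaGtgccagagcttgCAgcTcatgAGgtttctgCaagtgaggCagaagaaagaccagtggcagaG (chr13:52029957-52030046, plus strand, exon 2)
UTP14A stood at 147, 140 and 133 CPM untreated and 154, 160 and 147 CPM with emetine, and UTP14C at 18.3, 19.5 and 16.1 CPM untreated and 17.7, 17.0 and 23.2 CPM with emetine. Their untreated half-lives were close (3.27 ± 0.674 h and 3.30 ± 0.831 h), and UTP14C also shares its strand with ALG11, so its values are uncertain. RRP1 and RRP1B were 69.0% identical over 1369 aligned bases. RRP1 had 163, 166 and 155 CPM untreated and 170, 168 and 139 CPM with emetine, RRP1B 181, 186 and 187 CPM untreated and 184, 181 and 240 CPM with emetine, and their half-lives were 6.17 ± 1.37 h and 5.06 ± 1.09 h.

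Genes of the same pathway that do not carry these symbols were followed in 6 lists, which share no gene with the 52. Among 28 other processome genes, 28 other large subunit genes, 7 other snoRNP genes and 5 structural nucleolar genes, 0 were called in level, in fraction new, in labeled or in unlabeled reads. Among 10 other genes of RNA polymerase I transcription, 1 was called higher in level and in unlabeled reads, and among 14 cofactors of the exosome, 1 was called higher in level and 3 in unlabeled reads. Over all genes, 2.64% were called higher in level, 0.214% in fraction new, 0.26% in labeled reads and 7.3% in unlabeled reads. None of these 92 genes was called lower. Over all genes, the shares called lower were 0.0436% in level, 4.83% in fraction new, 0.632% in labeled reads and 0.0929% in unlabeled reads. Of the 10 polymerase I genes, 9 were tested in fraction new, labeled reads and unlabeled reads.

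The polymerase I gene was TAF1D, a subunit of the promoter selectivity factor SL1, whose introns also encode snoRNAs. It stood at 23.2, 21.0 and 20.7 CPM untreated and at 47.7, 44.8 and 39.3 CPM with emetine, with no overlap (log2 fold change 1.02 ± 0.11, adjusted p = 0.00549, edgeR). The level call held in 9 of 13 alternatives and was lost under spike-in scaling (adjusted p = 0.0640) and without untreated replicate 1 (0.0612), 2 (0.0699) or 3 (0.0583). Its unlabeled reads were higher by 1.10 ± 0.14 on the log2(CPM + 0.5) scale (adjusted p = 0.00304, limma), called under each of 9 alternatives.

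The exosome cofactors were ZCCHC8 and RBM7, which form the nuclear exosome targeting complex with the helicase MTREX, and PAPD5, a poly(A) polymerase that tags RNAs for the exosome. ZCCHC8 stood at 34.4, 34.2 and 37.8 CPM untreated and 46.2, 49.5 and 46.8 CPM with emetine (log2 fold change 0.42 ± 0.090, adjusted p = 0.0458, edgeR), a call that held in 4 of 13 alternatives and, of the 6 libraries, only without emetine replicate 3. Its unlabeled reads were higher by 0.71 ± 0.11 (adjusted p = 0.00520, limma), called under each of 9 alternatives. The unlabeled reads of PAPD5 and RBM7 were higher by 0.94 ± 0.17 (adjusted p = 0.0139, limma) and 0.59 ± 0.14 (adjusted p = 0.0356, limma), called under 7 and 4 of 9 alternatives. Both calls were lost without untreated replicate 2 (adjusted p = 0.0797 and 0.179) or 3 (0.0813 and 0.168), and that of RBM7 also without emetine replicate 1 (0.0731) or 2 (0.0790).

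These 4 genes turned over fast in untreated cells, with a fraction new of 35.1 ± 2.94% (TAF1D), 42.4 ± 6.47% (ZCCHC8), 36.7 ± 12.3% (PAPD5) and 40.7 ± 12.7% (RBM7), near the 42.3 ± 8.78% of UTP23 (SD, n = 3). With emetine the values were 30.0 ± 4.37%, 29.2 ± 2.42%, 25.7 ± 1.20% and 26.1 ± 1.99%. None of the 4 passed the test of fraction new (adjusted p between 0.0884 and 0.680, limma). Genes without a call had similar untreated values, such as EXOSC6 (39.7%) and POLR1C (37.0%). Unlabeled reads were computed from the level and the fraction new, so calls on them are not independent of the fraction new.

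For the 2 h experiment, the deposited tables give for each gene the authors' mean of normalized counts over the libraries, which has no error and joins the 3 treatments, and no other column was used here. 50 of the 52 genes were listed, without NOL3 and NOL4L. Their median was 1352.5 normalized counts, against 845 over the 9982 genes listed, from 196 (NOP10) to 10549 (NOL11). These libraries were made with a total RNA kit and the 1 h libraries with an mRNA kit, and the order of the 50 genes was only loosely shared with their 1 h levels (Spearman's rho 0.31, a description). UTP23 stood at 710, POLR1D at 572, NOP2 at 3412 and EXOSC4 at 282 normalized counts.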

How the data were processed

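HEK-293T cells were labeled with s4U for 1 h or 2 h with or without emetine, and their labels gave each sample's treatment, labeling time and number. Per the labels and the methods, the authors trimmed reads with cutadapt and mapped them to hg38 with a HISAT aligner, and for the 1 h experiment they tallied reads by their T positions and conversions to C. The counts in that deposited table are whole reads of 8 libraries, not normalized, with 17.1% to 18.3% of reads given to no gene, which stayed out of library sizes. For the 2 h experiment, the signal values that the authors deposited are mean normalized counts, scaled to ERCC spike-in reads and averaged over all 2 h libraries. The same 2 h tables also hold the authors' own fold changes, standard errors and p-values, which were not used, and neither was the table of spike-in size factors.

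Counts were summed per gene. Levels were compared with edgeR 4.0.16 (TMM, quasi-likelihood) under R 4.3.3 (13776 genes whose total exceeded 100 counts), with DESeq2 1.42.0 as an alternative. The fraction new was the maximum likelihood weight of a 2-component binomial mixture per gene and library (scipy 1.17.1 and numpy 2.4.6 under Python 3.11.15, tables with pandas 2.3.3), with the background rate of conversion from the library without s4U of the same treatment. Its logit, bounded at 0.001 and 0.999, was compared with limma 3.58.1 (trend, robust) (10763 genes that reached 100 reads in all 6 libraries with s4U). The study used bakR here, which was not run. Further limma fits compared log2(CPM + 0.5) of labeled and of unlabeled reads. All p-values are two-sided and adjusted by Benjamini-Hochberg over all genes tested. The 52 genes, the lists and the tests were chosen with earlier results of these data known. Both fits were tested on simulated data. For level, 96.0% of 200 genes changed by 1.5 on the log2 scale were recovered among 13699 genes, and 8.13% of calls were false. For fraction new, 96.0% of 200 genes changed by 1 on the logit scale were recovered among 10763, with 4.95% of calls false. The largest changes among the 52 genes were smaller, 0.48 on the log2 scale and -0.73 on the logit scale. The simulations do not give the recovery at such sizes.

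Named genes are those called in any test, the 5 with the smallest p in each direction in level and in fraction new, the 3 extremes of half-life and of level, the related pairs, and all subunits of the exosome and RNA polymerase I. Genes whose levels, labeled reads or unlabeled reads did not overlap are named as well. Of the lists, called genes are named. Symbols were matched to GENCODE 44 (17147 of 19222 by symbol, 1135 by an older symbol). Alternatives covered the normalization, the filters, the estimate of fraction new, pseudocounts, a trend on length and GC content (mgcv 1.9.3), a replicate block and leaving out each library in turn. No molecular identifiers are described, so reads are not independent molecules. Figures were drawn with matplotlib 3.10.9.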

Additional observations from a re-analysis of the deposited data

How the results depend on the processing

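These results rest on 3 libraries per group and on 45 to 24102 reads per gene and library. The standard error was 0.082 to 0.24 for a log2 fold change and 0.21 to 0.24 for a logit change. How far depth limits them was not tested. No level call among the 52 genes was made under the other count filters, DESeq2 size factors, spike-in scaling, the trend on length and GC content or the replicate block. DESeq2 called 1 gene higher (UTP23, log2 fold change 0.46). Over all genes it called 820 higher and 156 lower, the fit with the length and GC trend removed 762 and 706, and spike-in scaling 60 and 0. Spike-in scaling moved the median of the 52 genes to 0.68 and turned EXOSC1 to 0.42, EXOSC5 to 0.39, NOC2L to 0.47, NOP10 to 0.33 and RRP7A to 0.52. The same-numbered libraries did not deviate together (correlations of 0.060, -0.024 and -0.18 in level and 0.056, 0.0025 and 0.022 in fraction new, and not every library matched best with its own number). With the replicate block, 75 genes were called higher and 3 lower in level, 40 higher in fraction new, and 0 of the 49 tested genes of the group higher in unlabeled reads.

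In fraction new, a minimum of 50 reads gave 298 genes lower and 14 higher, and 0 of the 51 genes of the group tested there were lower. A minimum of 500 reads gave 227 and 14, with 0 of 47 lower. UTP23, with 299 to 952 reads in a library, fell below that minimum and was not tested there. Centering on the library median gave 748 lower, 126 higher and 2 of 49 lower (NOP2 and UTP23), with a median of 0.045. A common new-read rate gave 0 of 49, and weighting by reads gave 517 lower and 2 of 49 (NOP2 and POLR1D). The median untreated half-life was 6.82 h from reads with at least 2 conversions. Why the calls differ between these fits was not tested. Leaving out each library in turn gave 5 to 1365 genes higher and 0 to 527 lower in level, and 10 to 41 higher and 94 to 2524 lower in fraction new. Of the 52 genes, it called 0 to 2 higher in level (RRP8 and UTP23 without emetine replicate 3, 3.85%, against 9.91% of all genes), 0 to 7 lower in fraction new, 0 to 9 lower in labeled reads (9 without untreated replicate 1, 18.4% of 49, against 16.1% of all genes) and 0 to 4 higher in unlabeled reads (4 without emetine replicate 3, 8.16% of 49, against 13.7%). Their medians ran from -0.032 to 0.034 in level, -0.23 to 0.019 in fraction new, -0.22 to 0.0018 in labeled reads and -0.016 to 0.054 in unlabeled reads, and the half-life from 4.51 to 5.91 h.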

Other observations

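In the libraries without s4U, 1 untreated and 1 with 1.8 µM emetine, 40 of the 52 genes were higher with emetine and 12 lower, with a median log2 ratio of 0.10 and a range from -0.17 (NOP10) to 0.70 (NOL3). Over the 13776 genes tested for level, 50.3% were above 0 in the same libraries and the median was 0.0016, and the 52 genes in the libraries with s4U had 27 above 0 and 25 below. With 1 library of each kind there is no replicate check and no test. NOP56, a scaffold of the box C/D snoRNPs, stood at 493 CPM untreated and 644 CPM with emetine, and its partner NOP58 at 180 and 239 CPM. UTP14A stood at 134 and 174 CPM, and RRP8 at 37.57 and 50.003 CPM. POLR1D stood at 101 and 103 CPM. Across the 52 genes, the log2 ratio had a Spearman's rho of 0.12 with transcript length, given as a description.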
